A study of Mus musculus with 30 samples.

Results

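Matrix remodelling after surgical trauma of the gut wall was followed here through 10 genes, the Timp inhibitors Timp1, Timp2 and Timp3, the matrix metalloproteinases Mmp2, Mmp3, Mmp9 and Mmp10, and the proteoglycan-cleaving proteases Adamts1, Adamts4 and Adamts9. They were chosen by name with earlier results of these data known, so their shares beside those of all genes are descriptions. All 10 were listed among the 24601 genes of the tissue table and the 26179 genes of the joined RiboTag tables. The samples were the muscularis externa (ME), the outer muscle wall of the mouse small bowel with its enteric nerve plexus. It was taken from naive mice without surgery, or 3, 24 or 72 hours after intestinal manipulation (IM3h, IM24h and IM72h), in which the small bowel is rolled with moist cotton swabs under isoflurane anaesthesia to produce postoperative ileus. Total ME RNA (naive 3, IM3h 3, IM24h 4 and IM72h 4 libraries) was sequenced alongside RiboTag RNA (naive 3 and 4 libraries at each time point), which is pulled down with haemagglutinin-tagged ribosomes from cells that carry an active Cre.

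All RiboTag libraries came from the cross of B6 Tg(Sox10-icre/ERT2)388Wdr/J with B6N.129 Rpl22tm1.1Psam/J mice, in which a tamoxifen-inducible Cre under Sox10 control tags the ribosomes of Sox10-expressing cells, in the gut mainly the enteric glia. The ME libraries of IM24h and IM72h came from the same line, whereas those of naive and IM3h mice came from the cross of B6.Cg-Tg73.12Mvs/J(Gfap-cre) with B6N.129 Rpl22tm1.1Psam/J mice, in which Gfap drives the Cre. Line and time therefore cannot be told apart where ME at 24 or 72 hours is compared with naive or IM3h ME, nor line and fraction where the naive fractions or the 3-hour responses of the fractions are compared. The labels call the ME libraries inputs of the RiboTag procedure, so those of IM24h and IM72h may share mice with the RiboTag libraries, which the tests between fractions treat as independent. The operated mice also received anaesthesia and analgesia that naive mice did not, and this is part of every comparison with naive.

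Matrix metalloproteinases are secreted or membrane-bound zinc enzymes, made as inactive precursors, that cut collagens, laminins and other matrix proteins. ADAMTS proteases are secreted relatives that cut large proteoglycans such as versican and aggrecan. The Timp proteins bind the active site of metalloproteinases and block them, and Timp3 also blocks ADAMTS proteases. The balance of protease and inhibitor sets how fast matrix is broken down. In an injured gut wall these genes are expressed by fibroblasts, mesothelium, endothelium, smooth muscle, glia and invading leukocytes.

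Values are levels in CPM, read counts relative to the size of the library with the TMM correction for library composition, unless a log2 fold change with its standard error (SE) is given. The libraries held 3010306 to 7899493 estimated counts in RiboTag and 6603170 to 12866062 in ME. AY036118, a gene model that collects ribosomal RNA reads, took 2.02% to 14.0% of the counts in the naive and IM3h RiboTag libraries, 22.2% to 59.2% at 24 hours and 58.0% to 80.1% at 72 hours. In ME its share was 16.1% to 33.5% in naive and IM3h libraries and 1.33% to 6.5% later. Of the 10 genes, 7 to 9 had at least 1 count in each naive RiboTag library, 8 to 10 at IM3h, 7 to 10 at IM24h and 3 to 6 at IM72h. In ME every library had all 10, except for 1 naive library with 9. The RiboTag values at 24 and 72 hours thus rest on fewer usable counts, and the part of this in the results below was not tested.

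**Figure D1:**
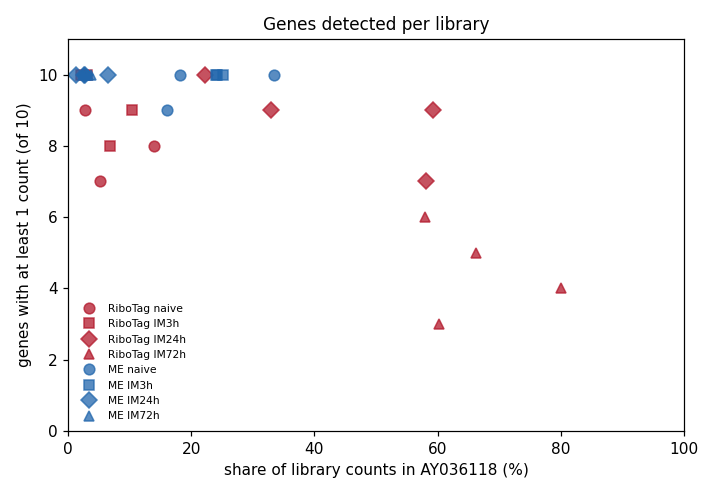
Number of the 10 genes with at least 1 count (y axis) against the share of each library's counts in AY036118 in percent (x axis), for every RiboTag (red) and ME (blue) library, with marker shape giving the group. The 4 RiboTag IM72h libraries lie at 58.0% or more with 3 to 6 genes, whereas the ME libraries lie at 9 or 10 genes.

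The naive RiboTag libraries carried the glial label. Of 8 glial markers, 7 were higher in naive RiboTag than in naive ME by edgeR's quasi-likelihood test (Sox10 by 5.76, S100b by 4.23 and Gfap by 3.47 on the log2 scale), with Cdh19 not called. Of all genes, 13.5% were higher. Markers of smooth muscle still summed to 4911 to 7560 CPM in those libraries, against 22140 to 23750 CPM in naive ME. A RiboTag value is therefore a level in an enriched pool and not in pure glia. In such bulk samples fewer cells of a type and less RNA per cell cannot be told apart, and the labels number the libraries without naming animals, so p-values measure only the spread between libraries.

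At 3 hours Timp1, Mmp3 and all 3 Adamts genes rose in both fractions. In RiboTag 6 of 9 tested genes were higher than in naive (Timp1, Timp3, Mmp3, Adamts1, Adamts4 and Adamts9) and 0 were lower, where 8.86% of all genes tested were called higher and 4.44% lower. With all RiboTag groups in 1 fit 0 of these were called, Adamts1 coming nearest (adjusted p = 0.0942), and of all 17930 genes 22 were called higher and 12 lower. In ME 6 of 10 were higher (Timp1, Mmp3, Mmp10, Adamts1, Adamts4 and Adamts9) and 2 were lower (Timp2 and Mmp2), where 19.3% of all genes were higher and 13.4% lower. Calls are at an adjusted p under 0.05 by edgeR's quasi-likelihood test with Benjamini-Hochberg adjustment over all genes. Adamts1, Timp1 and Mmp3 belong to a list of acute enteric gliosis genes of the study, in which Adamts1 was placed by its change in these libraries, so their direction is not independent evidence.

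At 24 hours 6 of 10 genes were higher in ME (Timp1, Mmp3, Mmp9, Mmp10, Adamts1 and Adamts4) and 1, Timp3, was lower, against 15.6% and 13.4% of all genes. At 72 hours 5 of 9 tested were higher in ME (Timp1, Mmp3, Mmp9, Adamts1 and Adamts4) and Timp3 was again lower, against 29.3% and 28.3% of all genes. In RiboTag at 24 hours edgeR called 0 of 9 tested genes, against 0.366% of all genes higher and 0.131% lower. There 4 genes had an unadjusted p under 0.05 and a change over 2-fold, 3 higher (Timp1, Mmp3 and Adamts4, beside 6.62% of all genes) and 1 lower (Timp3, beside 5.85%), and DESeq2 called 4 higher (Timp1, Mmp3, Mmp10 and Adamts4), as it did 539 of 21787 genes. In RiboTag at 72 hours 3 of 6 tested genes were lower (Timp3, Mmp2 and Adamts9) and 0 higher, where 15.1% of all genes were called lower and 1.05% higher. DESeq2, which tested more of them, called the same 3 lower and Adamts4 higher, as it did 1727 and 669 of 18895 genes. Without the filter on low counts the 3 calls of edgeR were lost (adjusted p 0.148 to 0.155), and of all 22119 genes 18 were called higher and 16 lower. Within edgeR the share of 15.1% thus depends on the filter. Mmp2 and Adamts9 passed that filter through their naive level and Adamts4 did not pass it, so the counts at 72 hours do not describe all 10 genes.

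The median log2 fold change over the tested members was 2.52 at 3 hours, 1.82 at 24 hours and 0.41 at 72 hours in ME, beside medians of all genes between 0.00 and 0.02. In RiboTag it was 1.70 at 3 hours and 1.18 at 24 hours, beside -0.04 and -0.11 for all genes. None is given for RiboTag at 72 hours, where the filter on low counts left 6 genes. In ME that filter left 9 genes at 72 hours, without Mmp10, which lay above naive (pooled ratio 6.56). The ME medians are thus not all over the same genes. The time points of a fraction share the same naive libraries. Counted among tested genes by libraries that do not overlap naive, 6 members were above and 2 below in ME at 3 hours (23.4% and 24.8% of all genes), 6 and 2 at 24 hours (20.1% and 20.8%) and 5 and 1 at 72 hours (31.1% and 27.7%). Mmp10, not tested in ME at 72 hours, was also above naive there. In RiboTag the tested members were 5 above and 1 below at 3 hours (14.3% and 15.6%), 3 and 1 at 24 hours (6.59% and 15%) and 0 and 3 at 72 hours (2.82% and 28%). Mmp9, not tested in RiboTag at 72 hours, was at 0 in all libraries and so also below naive.

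**Figure D2:**
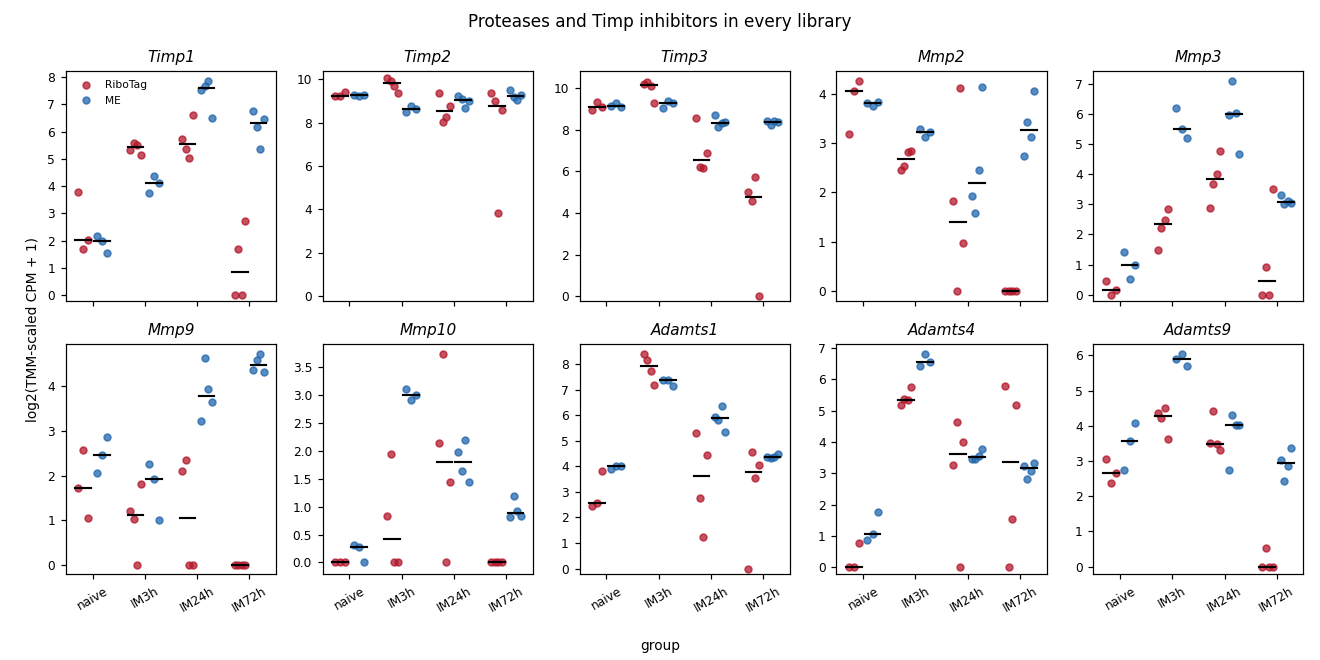
Level of each gene in every library as log2(TMM-scaled CPM + 1) on the y axis, by group on the x axis, for RiboTag (red) and ME (blue). Each point is 1 library and black bars are group medians. Timp1 in ME lies at 1.94 to 3.51 CPM in naive and 90.0 to 227 CPM at 24 hours, and Adamts4 in ME peaks at 85.8 to 110.2 CPM at 3 hours.

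Timp1 (chrX:20870166-20874735 in mm10, plus strand, inside Syn1, which lies on the other strand) encodes a secreted inhibitor of most metalloproteinases. In ME its level was 3.51, 3.01 and 1.94 CPM in the naive libraries and 12.5, 19.5 and 16.5 CPM at IM3h. It was 182, 201, 227 and 90.0 CPM at IM24h and 107, 69.9, 40.5 and 87.9 CPM at IM72h. No library of any time point overlapped the naive range, and the highest levels were those of 24 hours. The mean rose 5.73-fold at 3 hours (log2 2.57, SE 0.29, edgeR adjusted p = 0.000108), 62.2-fold at 24 hours (log2 5.95, SE 0.39, adjusted p = 2.69e-05) and 27.1-fold at 72 hours (log2 4.74, SE 0.38, adjusted p = 3.16e-06). The step from 3 to 24 hours was called (log2 3.48, SE 0.32, adjusted p = 0.000116), and so was the fall from 24 to 72 hours (log2 -1.23, SE 0.32, adjusted p = 0.0116), although the libraries of those times overlapped.

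In RiboTag Timp1 stood at 12.7, 2.26 and 3.08 CPM in naive libraries and at 39.0, 46.9, 44.8 and 33.8 CPM at IM3h. All IM3h libraries were above all naive ones, the first naive library being the highest of its group. The mean rose 6.84-fold (log2 2.83, SE 0.55, edgeR adjusted p = 0.0060), and without that naive library the log2 fold change was 4.01 (adjusted p = 0.000642). At IM24h the level was 51.6, 40.5, 31.9 and 96.8 CPM, again above the naive range, with a log2 fold change of 3.23 (SE 0.76) and an adjusted p of 0.0775. At IM72h it was 0, 2.20, 0 and 5.54 CPM, within or below the naive range, with a log2 fold change of -1.52 (SE 1.46, adjusted p = 0.703). The 72-hour response thus differed between the fractions, by -6.51 on the log2 scale as RiboTag minus ME (SE 1.54, adjusted p = 0.00706 for the interaction of fraction and treatment).

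Timp3 (chr10:86300372-86349506, plus strand, inside Syn3 on the other strand) encodes a matrix-bound inhibitor that also blocks ADAMTS proteases. It was 490.2, 656 and 549.5 CPM in naive RiboTag libraries and 1185, 1276, 1092 and 616 CPM at IM3h. The first 3 IM3h libraries were above the naive range and the last lay inside it. The mean ratio was 1.84 (log2 0.94, SE 0.29, edgeR adjusted p = 0.0482), a call that remained in 1 of 7 fits with 1 library left out. At IM24h the level was 381, 73.2, 70.1 and 118 CPM, all below naive (log2 -1.77, SE 0.55, adjusted p = 0.155). Without the first IM24h library the log2 fold change was -2.66 (adjusted p = 0.00319). At IM72h it was 31.4, 22.9, 51.9 and 0 CPM, a mean of 0.0469 times the naive one (log2 -4.38, SE 1.11, adjusted p = 0.0264). The direction at 72 hours was downward in every library, and the call held in 3 of 7 fits with 1 library left out (adjusted p 0.0255 to 0.0573). The fall from 3 to 24 hours was also called (log2 -2.62, SE 0.54, adjusted p = 0.0292), in 2 of 8 fits with 1 library left out (adjusted p up to 0.0954).

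In ME Timp3 did not pass the test at 3 hours, with 556, 625 and 549 CPM in naive and 533, 676 and 616 CPM at IM3h (log2 0.12, SE 0.12, edgeR adjusted p = 0.453, and -0.12 with scaling by library totals alone). It was lower at IM24h (416, 280.5, 319 and 326 CPM) and at IM72h (341, 301, 339 and 333 CPM). No library of either time reached the naive range. The log2 fold changes were -0.78 (SE 0.17, adjusted p = 0.00653) and -0.84 (SE 0.11, adjusted p = 7.81e-05). With scaling by library totals alone these were -0.135 (adjusted p = 0.607) and -0.23 (adjusted p = 0.153), a scaling under which the median of all genes moved to 0.66 at 24 hours and 0.62 at 72 hours. Timp3 therefore fell relative to the other genes. The smooth muscle markers, summed, fell beside it from 22140 to 23750 CPM in naive ME to 3245 to 10820 CPM at IM24h and 12400 to 20520 CPM at IM72h, and their part in the result was not tested. The 72-hour response of Timp3 was lower in RiboTag than in ME (log2 difference -3.86, SE 1.15, adjusted p = 0.0272). That call held in 9 of 14 fits with 1 library left out (adjusted p up to 0.0772) and was lost with DESeq2's size factors (adjusted p = 0.0563).

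Timp2 (chr11:118301069-118355740, minus strand, overlapped by Cep295nl on the same strand) encodes an inhibitor that also takes part in the activation of the Mmp2 precursor. Its ME level was 613, 589.6 and 607 CPM in naive and 361, 439 and 394 CPM at IM3h. The IM3h libraries were all lower, a log2 fold change of -0.55 (SE 0.10, edgeR adjusted p = 0.00273). At IM24h (405 to 586 CPM) and IM72h (532 to 723 CPM) no change was called, with log2 fold changes of -0.25 (SE 0.17) and -0.01 (SE 0.13), which were 0.39 and 0.60 (adjusted p = 0.00702 for the latter) with scaling by library totals. In RiboTag the naive libraries held 597, 595 and 678 CPM and the IM3h libraries 1074, 969, 832 and 661 CPM, which overlap (log2 0.56, SE 0.24, adjusted p = 0.155). Its 3-hour response nevertheless differed between fractions, by 1.20 on the log2 scale higher in RiboTag (SE 0.26, adjusted p = 0.0282). Mouse line and fraction cannot be told apart in this difference. It was the 1 gene of 10 called in that interaction, where 0.948% of all genes were called higher and 0.694% lower. By an unadjusted p under 0.05 and a difference over 2-fold, 2 were higher (Timp2 and Adamts1) and 0 lower, beside 5.96% and 5.13% of all genes, and DESeq2 called both of these, with 393 of 25732 genes higher. The Timp2 call held in 5 of 13 fits with 1 library left out (adjusted p up to 0.111) and was lost with library-total scaling (adjusted p = 0.0993). At IM72h 1 RiboTag library stood at 13.4 CPM and the others at 377 to 660.3 CPM.

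The stromelysin genes Mmp3 and Mmp10 encode secreted proteases that cut proteoglycans, laminin and fibronectin and activate other metalloproteinase precursors. They are paralogs on chromosome 9, Mmp3 at chr9:7445822-7455975 and Mmp10 at chr9:7502352-7510240, both on the plus strand with 46376 bases between them. Reads shared by such relatives could be split between them by the counting, and their small levels are uncertain to that extent. The 150 bases before the RefSeq start site are printed for both, and for Adamts1, since these genes had the largest fold changes in ME at 3 hours among those with a promoter entry (GRCm38.p6, the mm10 assembly). Capitals mark TGAGTCA, the reverse complement of the AP-1 motif TGACTCA, and the TATA box letters TATAAA.

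Mmp3, chr9:7445672-7445821, plus strand: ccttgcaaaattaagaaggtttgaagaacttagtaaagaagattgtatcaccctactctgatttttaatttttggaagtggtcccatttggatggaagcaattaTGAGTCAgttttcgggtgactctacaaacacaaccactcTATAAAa
Mmp10, chr9:7502192-7502341, plus strand: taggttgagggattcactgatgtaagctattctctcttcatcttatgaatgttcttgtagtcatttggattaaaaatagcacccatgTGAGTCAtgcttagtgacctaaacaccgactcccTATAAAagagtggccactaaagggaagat
Adamts1, chr16:85803114-85803263, minus strand: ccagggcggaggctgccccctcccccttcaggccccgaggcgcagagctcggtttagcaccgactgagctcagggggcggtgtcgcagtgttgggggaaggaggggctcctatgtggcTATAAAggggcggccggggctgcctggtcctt

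AP-1 is the Fos and Jun transcription factor family, which many immediate-early stimuli activate. Counted from the start site, its motif began at -46 in Mmp3 and at -63 in Mmp10. No other member with an entry had it, Adamts1 included. It was found in 2.84% of 32851 promoter windows of this length searched on both strands. TATAAA began at -7 in Mmp3, -29 in Mmp10 and -32 in Adamts1, in no other member with an entry, and was found in 7.57% of windows. The cyclic AMP response element TGACGTCA, found in 1.36% of windows, was in none of the 7 members with an entry (Mmp2, Mmp9 and Adamts4 had none). A match is a description of these letters only.

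In ME Mmp3 stood at 1.69, 0.431 and 0.969 CPM in naive libraries, at 71.6, 44.0 and 35.4 CPM at IM3h and at 62.0, 134, 65.1 and 24.3 CPM at IM24h. At IM72h it was 8.83, 7.0, 7.55 and 7.15 CPM. The groups after manipulation did not overlap the naive range, and the IM72h libraries lay below all those of 3 and 24 hours. Mean levels were 48.8 times naive at 3 hours (log2 5.53, SE 0.40, edgeR adjusted p = 6.18e-06), 69.3 times at 24 hours (log2 5.98, SE 0.66, adjusted p = 0.000242) and 7.40 times at 72 hours (log2 2.74, SE 0.34, adjusted p = 5.4e-05). The fall from 24 to 72 hours was called (log2 -3.27, SE 0.42, adjusted p = 0.000224).

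In RiboTag Mmp3 was near the detection limit in naive libraries (0.381, 0 and 0.119 CPM) and reached 1.78, 3.63, 4.54 and 6.17 CPM at IM3h. All 4 were above the naive range. The ratio of pooled counts was 24.5 with a 95% exact interval of 9.37 to 90.8, which covers counting error only (log2 4.57, SE 1.37, edgeR adjusted p = 0.0467). That call was lost in each of the 7 fits with 1 library left out (adjusted p 0.0503 to 0.136). At IM24h the level was 6.30, 11.9, 15.1 and 26.5 CPM, again above naive in every library, with a pooled ratio of 88.6 (34.2 to 328) and a log2 fold change of 6.37 (SE 1.59, adjusted p = 0.0951). At IM72h it was listed at 0, 0.880, 0 and 10.5 CPM and was not tested. The second and the last of these libraries were above the naive range.

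Mmp10 was in ME at 0.242, 0.215 and 0 CPM in naive libraries and at 7.61, 6.49 and 6.98 CPM at IM3h. It stood at 2.92, 2.10, 3.55 and 1.72 CPM at IM24h and 0.756, 1.28, 0.906 and 0.780 CPM at IM72h. Every group was above naive, and the 3 times formed a descending order without overlap. The pooled count ratio was 49.7 (95% exact interval 16.7 to 244) at 3 hours, 18.6 (6.18 to 91.5) at 24 hours and 6.56 (2.12 to 32.9) at 72 hours. The first 2 were called with log2 fold changes of 5.50 (SE 0.60, edgeR adjusted p = 8.79e-05) and 4.02 (SE 0.94, adjusted p = 0.00995), and the last was below the filter on low counts. The falls from 3 to 24 hours (log2 -1.40, SE 0.41, adjusted p = 0.028) and from 24 to 72 hours (log2 -1.50, SE 0.47, adjusted p = 0.0263) were called, each in fewer than all fits with 1 library left out (4 of 7 and 3 of 8). In RiboTag Mmp10 had 0 counts in all naive libraries. It is not listed in the 72-hour table, which holds transcripts with a total of at least 10 counts, and was taken as 0 there. Its libraries stood at 0.773, 2.87, 0 and 0 CPM at IM3h and at 3.4, 12.3, 0 and 1.72 CPM at IM24h. The second library held most of the level at both times, so no fold is given.

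Mmp9 (chr2:164940780-164955850, plus strand) encodes a gelatinase that neutrophils store in granules and macrophages also secrete. In ME it was 3.14, 4.52 and 6.30 CPM in naive libraries and 3.80, 2.80 and 0.997 CPM at IM3h, with no call (log2 -0.81, SE 0.50, edgeR adjusted p = 0.241). It stood at 8.29, 23.8, 14.3 and 11.6 CPM at IM24h and at 19.5, 23.2, 25.4 and 19.1 CPM at IM72h. Both later groups lay above every naive library. The means were 3.12 times naive (log2 1.63, SE 0.41, adjusted p = 0.0148) and 4.68 times naive (log2 2.19, SE 0.23, adjusted p = 2.11e-05), and the step from 3 to 24 hours was called (log2 2.53, SE 0.51, adjusted p = 0.00521). Without naive library 1 or 2 the 24-hour call was lost (adjusted p = 0.0746 and 0.0595). No rise was called at 3 hours and no fall from 24 to 72 hours.

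Leukocyte markers changed in ME as well. The 5 listed neutrophil markers of 7 summed to 0.846 to 0.861 CPM in naive, 21.6 to 30.1 CPM at IM3h, 44.3 to 212 CPM at IM24h and 19.5 to 56.1 CPM at IM72h, none of them at 0 over a group. Of those tested, 2 of 2, 4 of 4 and 5 of 5 were called higher than naive, beside 19.3%, 15.6% and 29.3% of all genes. From 24 to 72 hours 3 of 5 were called lower, beside 19.9%. The 7 macrophage markers summed to 178 to 186 CPM in naive, 141 to 158 CPM at IM3h, 382 to 552 CPM at IM24h and 1142 to 1444 CPM at IM72h, with 5 of 7 called higher at 24 hours and 7 of 7 at 72 hours. The part of these cells in the Mmp9 level was not tested. In RiboTag Mmp9 was 2.29, 4.97 and 1.07 CPM in naive libraries, 0 to 2.52 CPM at IM3h, 0 to 4.09 CPM at IM24h and 0 in all IM72h libraries. Against 3 counts in each library, the limit that a count of 0 allows, the last is at least 1.48-fold lower than naive. None of these differences was called or, at IM72h, tested.

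Mmp2 (chr8:92827291-92853420, plus strand) encodes the other gelatinase, which mesenchymal cells make. In ME it was 13.2, 12.5 and 13.2 CPM in naive and 8.74, 7.67 and 8.31 CPM at IM3h, without overlap (log2 -0.60, SE 0.20, edgeR adjusted p = 0.0394). That call was lost in each of 6 fits with 1 library left out and in DESeq2 (adjusted p = 0.109). Markers of fibroblasts were lower beside it, at 1977 to 2112 CPM summed over 7 genes in naive and 889 to 1072 CPM at IM3h. Of 6 tested 4 were called lower, beside 13.4% of all genes. At IM24h Mmp2 stood at 2.83, 2.0, 4.46 and 16.5 CPM and at IM72h at 5.72, 9.71, 7.77 and 15.7 CPM, neither called (log2 -1.01, SE 0.62, and -0.44, SE 0.29, the latter 0.16 with library-total scaling and -0.78, adjusted p = 0.00846, without IM72h library 4). Without the fourth IM24h library, the only one above naive at that time, the 24-hour log2 fold change was -2.06 (adjusted p = 0.0015). In RiboTag it was 8.13, 15.6 and 18.1 CPM in naive and 4.48 to 6.17 CPM at IM3h, below naive in all 4 libraries (log2 -1.32, SE 0.47, adjusted p = 0.0877). At IM24h it ranged from 0 to 16.4 CPM. At IM72h all 4 libraries had 0 counts, at least 7.46-fold lower than naive against 3 counts in each library (adjusted p = 0.0347). The call held in 4 of 7 fits with 1 library left out. Mmp2 passed the filter on low counts through its naive level, and without that filter the call was lost (adjusted p = 0.148).

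Adamts4 (chr1:171250421-171260637, plus strand) encodes a protease known for cutting aggrecan and versican. In RiboTag it was 0, 0 and 0.711 CPM in naive libraries and 35.4, 40.0, 39.4 and 52.5 CPM at IM3h. The IM3h libraries were tightly grouped and far above naive, with a log2 fold change of 7.44 (SE 0.77, edgeR adjusted p = 0.000123). Since naive had 6 counts, all in 1 library, its size is loose: it ranged from 6.87 to 11.7 with 1 library left out, highest without that library, and stayed called. At IM24h it was 8.69, 23.7, 0 and 14.9 CPM (log2 5.56, SE 2.10, adjusted p = 0.245), and at IM72h 54.7, 0, 1.92 and 35.7 CPM, left untested by edgeR's filter on low counts and called higher by DESeq2. At both later times 1 library was at 0 while others exceeded every naive one. In ME it was 0.846, 1.08 and 2.42 CPM in naive, 85.8, 110.2 and 93.4 CPM at IM3h, 9.98, 10.1, 10.8 and 12.7 CPM at IM24h and 8.49, 6.10, 7.47 and 9.10 CPM at IM72h.

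The ME groups of Adamts4 at 3, 24 and 72 hours all lay above naive. The ratios of means were 66.6 (log2 6.04, SE 0.28, edgeR adjusted p = 4.2e-07), 7.54 (log2 2.87, SE 0.43, adjusted p = 0.00103) and 5.38 (log2 2.35, SE 0.35, adjusted p = 0.000204). The fall from 3 to 24 hours was called (log2 -3.10, SE 0.17, adjusted p = 9.29e-06), and the step to 72 hours was not called (-0.52, adjusted p = 0.0803).

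Adamts1 (chr16:85793827-85803113, minus strand) encodes a secreted protease of the same versican-cutting group, and its promoter letters are printed above. Its RiboTag level was 4.45, 4.97 and 13.2 CPM in naive libraries and 331, 281, 212 and 143 CPM at IM3h. Each IM3h library exceeded each naive one, and the mean ratio was 32.1 (log2 5.06, SE 0.48, edgeR adjusted p = 7.03e-05). At IM24h it was 38.3, 5.72, 1.33 and 21 CPM and at IM72h 0, 22.4, 10.6 and 15.4 CPM, which overlap naive. The log2 fold changes were 1.20 (SE 1.12, adjusted p = 0.739) and 0.70 (SE 1.78, adjusted p = 0.922, and -1.06 with scaling by library totals). The fall from 3 to 24 hours was called (log2 -3.75, SE 0.73, adjusted p = 0.0229), in 3 of 8 fits with 1 library left out (adjusted p up to 0.0771).

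In ME Adamts1 was 13.8, 15.1 and 15.3 CPM in naive and 167, 166 and 139.7 CPM at IM3h. It was 60.7, 54.6, 81.2 and 39.7 CPM at IM24h and 19.5, 19.0, 19.6 and 21.5 CPM at IM72h. The 4 groups did not overlap, in the order IM3h, IM24h, IM72h and naive from high to low. The log2 fold changes against naive were 3.47 (SE 0.13, edgeR adjusted p = 2.57e-07), 2.0 (SE 0.24, adjusted p = 0.000335) and 0.41 (SE 0.13, adjusted p = 0.0213), and the last was lost without naive library 1 and with all ME groups in 1 fit (adjusted p = 0.0791 and 0.0795). The falls to 24 hours (log2 -1.38, SE 0.22, adjusted p = 0.0015) and from there to 72 hours (log2 -1.60, SE 0.20, adjusted p = 0.000183) were called. The 3-hour difference of Adamts1 between the fractions, 1.67 on the log2 scale as RiboTag minus ME (SE 0.49), did not pass the test (adjusted p = 0.103).

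Adamts9 (chr6:92772699-92943492, minus strand, overlapped by A730049H05Rik, Gm15737 and 9530026P05Rik on the other strand) encodes a protease that cuts versican and aggrecan. It was 7.37, 4.18 and 5.34 CPM in naive RiboTag and 19.4, 17.7, 21.9 and 11.4 CPM at IM3h, without overlap (log2 1.70, SE 0.43, edgeR adjusted p = 0.0232). The call held in 2 of 7 fits with 1 library left out. At IM24h it was 10.3, 20.4, 10.2 and 8.97 CPM (log2 1.18, SE 1.02, adjusted p = 0.711), still above every naive library. At IM72h 3 libraries were at 0 and the other at 0.440 CPM. The pooled count ratio to naive was 0.0255 with a 95% exact interval of 0.000642 to 0.145 (log2 -5.13, SE 1.08, adjusted p = 0.0138), and the call held in 7 of 7 fits with 1 library left out. Adamts9 passed the filter on low counts through its naive level, and without that filter the call was lost (adjusted p = 0.155).

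In ME Adamts9 was 5.68, 10.8 and 15.9 CPM in naive and 58.3, 64.2 and 50.4 CPM at IM3h, 5.35 times naive (log2 2.47, SE 0.30, edgeR adjusted p = 0.000171). It was back in the range of the naive libraries or close to it at IM24h (5.75, 18.7, 15.2 and 15.2 CPM) and IM72h (7.14, 4.37, 6.27 and 9.30 CPM). Neither later time was called against naive, although at IM72h a lower level was called without naive library 1 (log2 -1.02, adjusted p = 0.0165) or IM72h library 4 (adjusted p = 0.0481), whereas the falls between successive times were (log2 -2.03, SE 0.32, adjusted p = 0.00163, and log2 -1.05, SE 0.36, adjusted p = 0.0389). The latter held in 2 of 8 fits with 1 library left out. Adamts1, Adamts4 and Adamts9 thus had their highest ME group at 3 hours, as did Mmp10, whereas Timp1 had it at 24 hours. Mmp3 had its highest mean at 24 hours and Mmp9 at 72 hours, but the libraries of Mmp3 at 3 and 24 hours and those of Mmp9 at 24 and 72 hours overlapped.

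**Figure D3:**
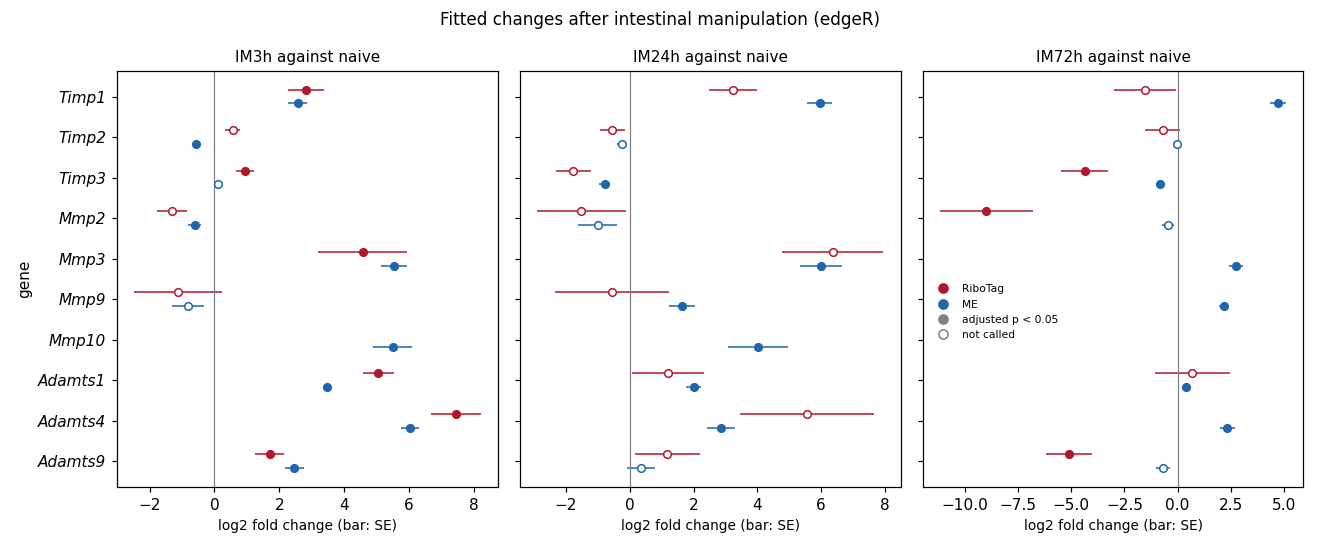
Fitted log2 fold change against naive (x axis, bars are SE) for each gene (y axis) at 3, 24 and 72 hours in RiboTag (red) and ME (blue). Filled points passed an adjusted p of 0.05, and genes without a point were not tested. The 3-hour panel has Adamts4 at 7.44 in RiboTag and 6.04 in ME, and the 72-hour panel has Timp1 at 4.74 in ME and -1.52 in RiboTag. The x axes of the 3 panels differ in range.

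Between successive times, 2 of 10 tested genes were higher and 5 lower in ME at 24 than at 3 hours, where 14.2% and 13.4% of all genes were. With library-total scaling the falls of Timp3 (-0.016), Mmp10 (-0.60) and Adamts1 (-0.57) over this step were not called, at adjusted p of 0.951, 0.274 and 0.0595. Timp2 (1.20, adjusted p = 0.000352) and Mmp3 were then called higher, so that 4 were higher and 2 lower under that scaling, where the median of all genes moved to 0.84. From 24 to 72 hours 0 were higher and 5 lower in ME, beside 18.6% and 19.9% of all genes. In RiboTag 2 of 10 (Timp3 and Adamts1) were lower at 24 than at 3 hours, beside 0.937% of all genes, and 0 higher, beside 0.965%. By an unadjusted p under 0.05 and a change over 2-fold, 1 was higher (Mmp3, beside 6.83% of all genes) and 3 lower (Timp2, Timp3 and Adamts1, beside 7.24%), and the 2 calls were lost with library-total scaling and with all groups in 1 fit. From 24 to 72 hours edgeR called 0 of 7 tested members and 0 of 9344 genes (0% called). There 3 members had an unadjusted p under 0.05 and a change over 2-fold (Timp1, Timp3 and Adamts9, all lower), beside 4.81% of all genes lower and 1.47% higher, and DESeq2 called 1 lower, Adamts9, as it did 251 of 19038 genes.

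The response at 72 hours differed between the fractions for 5 of 9 tested genes, Timp1, Timp3, Mmp2, Mmp9 and Adamts9, all lower in RiboTag, where 20.3% of all genes were called lower and 2.04% higher. For Adamts9 the log2 difference was -4.71 (SE 1.22, edgeR adjusted p = 0.0123). Mmp2 and Mmp9 had no count in RiboTag at IM72h, so the size of their fitted difference depends on the prior count (adjusted p = 0.000875 and 0.00102). These and Adamts9 passed the filter on low counts through groups other than RiboTag IM72h. In RiboTag at IM72h 1 of 8 glial markers was called lower than naive, beside 15.1% of all genes. Summed glial markers were 202 to 1461 CPM there against 1637 to 1980.0 CPM in naive, and the AY036118 share was 58.0% or more. Their part in these differences was not tested. At 24 hours 0 of 10 genes differed by edgeR, beside 0.247% and 0.241% of all genes, with an unadjusted p under 0.05 and over 2-fold for 1, Timp1 (-2.69, SE 0.79, adjusted p = 0.14), beside 7.12% of all genes lower and 5.71% higher. DESeq2 called Timp1 lower there, as it did 460 of 25882 genes.

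In naive mice none of 7 tested genes was called between RiboTag and ME by edgeR, where 13.5% of all genes were higher in RiboTag and 12.8% lower. Timp2 had an unadjusted p of 0.0219 and was called by DESeq2, as were 2224 of 25421 genes in that direction (log2 0.40, SE 0.15, adjusted p = 0.0711 in edgeR). The Timp2 and Timp3 libraries of naive RiboTag lay above those of ME on the common scale of this fit. With scaling by library totals 4 were called higher in RiboTag, as were 5186 of 14779 genes, with a median log2 difference of 0.73 over all genes. No tested member had a difference near those of Sox10 or S100b.

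Other genes of the pathway gave the setting for these changes. Of 19 further metalloproteinase genes, 14 were listed in ME. At 3 hours 5 of 10 tested were higher and 4 lower (19.3% and 13.4% of all genes), led by Mmp8, the neutrophil collagenase (log2 4.83, SE 0.73, edgeR adjusted p = 0.000746), Mmp25 (2.57, SE 0.55) and the collagenase Mmp13 (2.36, SE 0.49). At 24 hours 4 of 11 were higher and 1 lower (15.6% and 13.4% of all genes), led by Mmp12, the macrophage elastase (6.10, SE 0.76, adjusted p = 0.000383), Mmp8 (4.48, SE 1.0) and Mmp23 (1.66, SE 0.22). At 72 hours 5 of 10 were higher and 2 lower (29.3% and 28.3% of all genes), led by Mmp12 (5.90, SE 1.01), Mmp23 (2.51, SE 0.14, adjusted p = 4.74e-07) and Mmp14, the membrane-type activator of the Mmp2 precursor (2.02, SE 0.18). The part of neutrophils and macrophages, whose summed markers are given above, in the levels of Mmp8 and Mmp12 was not tested.

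Mmp8 in ME was 0.121, 0.215 and 0 CPM in naive and 2.25, 3.69 and 3.49 CPM at IM3h. Mmp12 was 0, 0 and 0.484 CPM in naive and 8.61 to 20 CPM at IM24h. Mmp14 was 91.8 to 103 CPM in naive and 307 to 540.1 CPM at IM72h. None of these groups overlapped naive. In RiboTag 15 of the 19 were listed and 0 of 8 tested were called at 3 hours and 0 of 7 at 24 hours. At 72 hours 1 of 7, Mmp11, was called lower, beside 15.1% of all genes. It was 1.69 to 4.32 CPM in naive and 0 in all but 1 IM72h library, and passed the filter on low counts through its naive level.

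Of 16 further Adamts genes, 15 were listed in each fraction, and none was called higher at 3 hours. In ME at 3 hours 0 of 9 tested were higher and 4 lower, beside the same 19.3% and 13.4% of all genes, led by Adamts6 (-2.13, SE 0.58), Adamts12 (-1.78, SE 0.33) and Adamts7 (-1.56, SE 0.47). At 24 hours 1 was higher, Adamts2, a procollagen peptidase (1.01, SE 0.30), and 3 of 9 lower, beside 15.6% and 13.4%, led by Adamts17 (-3.39, SE 1.07) and Adamts8 (-1.37, SE 0.38). At 72 hours 4 of 11 were higher and 3 lower, beside 29.3% and 28.3%, led by Adamts14, another procollagen peptidase (2.07, SE 0.49), Adamts10 (1.56, SE 0.19) and Adamts2 (1.51, SE 0.16). In RiboTag 0 of 10 were called at 3 hours, beside 8.86% of all genes higher and 4.44% lower, and 0 of 10 at 24 hours, beside 0.366% and 0.131%. At 72 hours 1 of 9, Adamts20, was called lower, beside 15.1% of all genes. It had all IM72h libraries at 0 and 2.61 to 4.32 CPM in naive, through which it passed the filter on low counts. The further inhibitors (Timp4, Reck and A2m, all listed) gave 0 calls among 2 tested in every comparison with naive in either fraction.

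The substrates of these proteases were read through the 6 genes of the lectican and link protein list, of which 5 were listed in each fraction and 4 tested. Versican (Vcan), a large chondroitin sulfate proteoglycan that Adamts1, Adamts4 and Adamts9 cut, was the 1 gene called higher in ME at each time. It was 10.5, 10.8 and 12.5 CPM in naive, 30.7, 26.0 and 16.6 CPM at IM3h, 73.3, 86.5, 113 and 44.2 CPM at IM24h and 43.3, 34.0, 25.8 and 31.3 CPM at IM72h. All libraries after manipulation were above naive. The log2 fold changes were 1.17 (SE 0.24, edgeR adjusted p = 0.0042), 2.81 (SE 0.30, adjusted p = 0.000214) and 1.54 (SE 0.19, adjusted p = 5.34e-05). Hapln1, a link protein, was lower at 72 hours (-2.62, SE 0.54).

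In RiboTag Vcan rose at 3 hours from 10.2, 7.23 and 12 CPM to 39.7, 19.5, 25.1 and 17.7 CPM (log2 1.43, SE 0.40, edgeR adjusted p = 0.0322). No gene of the list was called at 24 hours. At 72 hours brevican (Bcan), a lectican of neural tissue, had all 4 libraries at 0 against 8.47 to 16.1 CPM in naive. It was called lower, as were 15.1% of all genes, and it too passed the filter on low counts through its naive level.

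**Figure D4:**
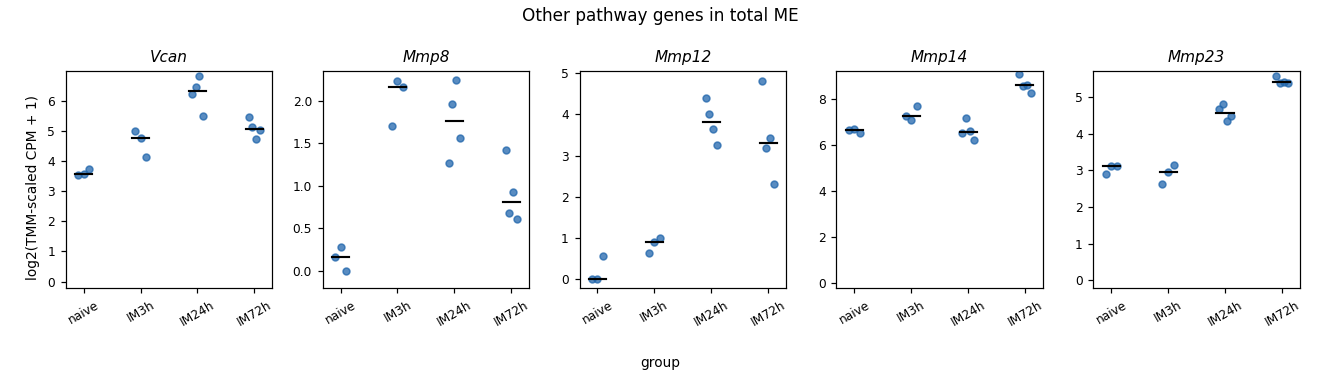
Levels of Vcan, Mmp8, Mmp12, Mmp14 and Mmp23 in every ME library as log2(TMM-scaled CPM + 1) on the y axis, by group on the x axis, with black bars at group medians. Vcan is highest at 24 hours (44.2 to 113 CPM) and Mmp14 at 72 hours (307 to 540.1 CPM).

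Markers of the other cell types of the wall are set beside the shares of all genes called in ME. These were 19.3% higher and 13.4% lower at 3 hours, 15.6% and 13.4% at 24 hours and 29.3% and 28.3% at 72 hours. Mesothelial markers in ME fell from 97.2 to 141 CPM summed in naive to 2.07 to 14.1 CPM at IM3h (5 of 5 called lower), with 1 of 5 lower at 24 hours and 4 of 5 at 72 hours. Smooth muscle markers in ME had 1, 5 and 4 of 7 lower at the 3 times. Fibroblast markers in ME had 1 higher and 1 lower of 6 tested at 24 hours and 4 higher and 1 lower of 7 at 72 hours (3621 to 4303 CPM). Endothelial markers had 1, 2 and 4 of 4 called higher in ME at 3, 24 and 72 hours. Neuronal markers in ME had 0, 0 and 1 higher and 0, 1 and 1 lower of 5, and epithelial markers 0, 0 and 1 higher and 0, 2 and 0 lower of 4. Glial markers in ME had 2, 1 and 4 of 8 higher and 2, 1 and 1 lower. In RiboTag at 3 hours 3 of 4 mesothelial, 3 of 7 smooth muscle and 3 of 7 fibroblast markers were lower, 2 glial markers were higher and 2 lower (Sox10 and Erbb3), and 1 neuronal marker was higher. These counts stand beside 8.86% of all genes higher and 4.44% lower. At 24 hours 3 of 7 smooth muscle markers were lower and no marker of the other lists was called, beside 0.131% of all genes lower and 0.366% higher. The RiboTag sums still differed from naive there. Glial markers summed to 808 to 969 CPM against 1637 to 1980 CPM, and neutrophil markers to 7.18 to 49.2 against 1.24 to 3.18 CPM. Macrophage markers summed to 151 to 271 CPM at 24 hours, which overlaps naive (83.0 to 165.6 CPM), and to 218.9 to 473.5 CPM at 72 hours. At 72 hours 1 glial, 1 smooth muscle, 1 mesothelial, 2 endothelial and 1 epithelial marker were lower and 1 macrophage marker was higher, beside 15.1% of all genes lower and 1.05% higher. The part of these shifts in the levels of the 10 genes was not tested.

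Among the genes whose log2 level followed Timp1 most closely over the 14 ME libraries, of 17919 genes, were Rplp0 (Pearson r 0.978) and Lcn2 (0.975). For Adamts1 they were Eif1a (0.989), Kcne4 (0.985) and Slmapos2 (0.982). Over the 15 RiboTag libraries, of 17930 genes, they were Camk2d (0.928), Rps24-ps3 (0.91) and Lilr4b (0.905) for Timp1 and Ahnak (0.939), Med13 (0.922) and Rock2 (0.913) for Adamts1. These are descriptions, since the points share groups, depth and AY036118 share, and the leading genes are picked from all genes.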

How the data were processed

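Total ME RNA and RiboTag RNA were sequenced as 3′ libraries. Per the labels the authors trimmed with cutadapt, aligned to mm10 with STAR and quantified in Partek Flow, and they deposited estimated counts per gene (ME) or per transcript (RiboTag), which need not be whole. Strand handling in counting is not given in the sources used here, so reads of overlapping genes on opposite strands cannot be told apart. RiboTag transcripts were summed by symbol over the tables of 3 time points, which share the naive libraries. The tables hold 1 line per library, with its group but under a name that matches no label. They have 3 naive RiboTag libraries where the labels list 4 samples. Counts were rounded and tested with edgeR 4.0.16 (TMM, filterByExpr, quasi-likelihood test, two-sided, Benjamini-Hochberg adjustment over all genes tested, R 4.3.3), within the libraries of each comparison, and with an interaction term for differences between fractions. Alternatives were DESeq2 1.42.0, other scalings, no filter, ME counts summed from transcripts, all groups of a fraction together, the study's rule (unadjusted p under 0.05 and over 2-fold), each library left out, and AY036118 left out, the last chosen after seeing the data. Positions are from GENCODE for mm10, promoters from RefSeq. Library numbers follow the sorted library names of each group and carry no other meaning. Ratios with a group at 0 use a floor of 3 counts in each of its libraries. Low pooled counts have exact 95% intervals. Intervals and floors cover counting error only.

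On counts simulated for these libraries, edgeR recovered 89.5% of genes changed 16-fold and 51.1% of those changed 4-fold for RiboTag IM3h against naive, 59.8% and 15.8% for IM24h and 16.7% and 1.18% for IM72h. In ME it recovered 100% and 94.5%, 98.9% and 86.3%, and 100% and 98%. At 4-fold, 7.92% (RiboTag IM24h) and 11.8% (RiboTag IM72h) of the changed genes had the wrong sign. The changed genes were few and drawn from those above a minimum mean count, with spread taken from the fitted trend. These rates therefore do not describe members with fewer counts. All 10 members are named throughout, with up to 3 called genes of largest change per list of pathway genes and time against naive, and the 3 most alike genes for Timp1 and Adamts1, of which 1 is not reported here. Members and lists were chosen with earlier results of these data known. The p-value and fold change columns of the authors' own comparisons were not used.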

Additional observations from a re-analysis of the deposited data

Results flagged for a closer look

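In 6 of 47 groups of 4 libraries, 1 library's level stood apart from the others by Dixon's criterion at 95%, which chance meets in about 1 of 20 groups. Where 3 of 4 libraries are at 0 any count meets it, so these numbers are not compared. Timp3 in RiboTag IM24h library 1 was 381 CPM, with the nearest at 118 CPM. Mmp2 in RiboTag IM24h library 3 was 16.4 CPM, with the nearest at 2.52 CPM, and Mmp2 in ME IM24h library 4 was 16.5 CPM, with the nearest at 4.46 CPM. Mmp3 in RiboTag IM72h library 4 was 10.5 CPM, with the nearest at 0.880 CPM. Adamts9 was 20.4 CPM in RiboTag IM24h library 2, with the nearest at 10.3 CPM, and 0.440 CPM, a single count, in RiboTag IM72h library 2, where the others were at 0 and the criterion carries no information.

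The response to manipulation differed between RiboTag and ME for 6 results by the test of the interaction. At 3 hours Timp2 was higher in RiboTag by 1.20 on the log2 scale, where mouse line and fraction cannot be told apart. At 72 hours the RiboTag response was lower, with log2 differences of -6.51 for Timp1, -3.86 for Timp3, -9.56 for Mmp2, -9.87 for Mmp9 and -4.71 for Adamts9. The values for Mmp2 and Mmp9 are fitted against RiboTag libraries that are all at 0, so their size depends on the prior count and is no bound. Mmp2, Mmp9 and Adamts9 passed the filter on low counts through groups other than RiboTag IM72h. At 72 hours the ME libraries came from another mouse line than naive ME, which cannot be told apart from time in these differences.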

How the results depend on the processing

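Only members tested by edgeR are tallied here, all against naive and, in other comparisons, those with an unadjusted p under 0.05 in the reported fit. Of 546 single-gene values under other settings, 495 kept direction and side of the threshold, 29 lost the call, 14 gained it and 8 changed sign; of 647 with 1 library left out, 561 kept both, 72 lost the call, 10 gained it and 4 changed sign. The counts of called members that moved by over 1.5 times were these. With all groups of a fraction in 1 fit, 0 were called in RiboTag at IM3h (6 in the reported fit), 0 for IM24h against IM3h (2) and 2 for IM72h against IM24h (0). DESeq2 gave 4 for RiboTag IM24h (0), 1 for IM72h against IM24h (0), 2 for the fraction difference at 3 hours (1), 1 for that at 24 hours (0) and 1 between the naive fractions (0). Without the filter on low counts there were 1 for RiboTag IM24h (0), 0 for RiboTag IM72h (3) and 3 for ME IM72h against IM24h (5). Library-total scaling gave 0 for RiboTag IM24h against IM3h (2), 0 and 1 for the fraction differences at 3 and 24 hours (1 and 0) and 4 between the naive fractions (0). The study's rule gave 4 for RiboTag IM24h, 4 and 3 for the RiboTag steps to 24 and 72 hours, and 2 and 1 for the fraction differences at 3 and 24 hours. Leaving out AY036118 changed no count. The cause was not tested.

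With 1 library left out, the counts ranged in RiboTag from 3 to 6 at IM3h, 0 to 1 at IM24h and 1 to 3 at IM72h (1 without naive library 2 or 3), and in ME were 7 at IM3h, 6 to 8 at IM24h and 6 to 8 at IM72h. For the steps they were 0 to 3 and 0 in RiboTag and 6 to 8 and 3 to 5 in ME. For the fraction differences they were 0 to 3, 0 to 1 and 4 to 5 at the 3 times, and 0 to 1 in naive.

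Values that changed sign were near 0 or followed the scaling. With library totals, Adamts1 in RiboTag IM72h was -1.06, Timp3 in ME IM3h -0.12, Timp2 in ME 0.39 at IM24h and 0.60 at IM72h, and Mmp2 in ME IM72h 0.16, while the median of all genes moved to -2.13 in RiboTag IM72h. Timp2 in ME IM72h was 0.028 by DESeq2, 0.094 without the filter and 0.023 with all groups together, and -0.10 to 0.065 with 1 library left out. Mmp9 in RiboTag IM24h ranged from -1.20 to 0.14. No paired analysis was possible because the deposited tables give each library's group under a name that matches no label, so the sample numbers of the labels cannot be assigned to libraries, and the replicate block was not run. In simulated counts 1.18% of 4-fold changes were recovered for RiboTag IM72h against naive and 15.8% for IM24h, so most changes of that size were missed under the simulated setting.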
